A study of Mus musculus with 9 samples.

Results

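Toll-like receptors are membrane proteins of innate immunity that recognise microbial products and molecules released by damaged cells. Tlr1, Tlr2, Tlr4 and Tlr6 act at the cell surface, where Cd14 hands ligands to Tlr4, while Tlr3, Tlr7, Tlr8 and Tlr13 sense nucleic acids inside endosomes. Most of them signal through the adaptor Myd88 to NF-kB, whereas Tlr3 signals through the adaptor Ticam1 (TRIF) alone. In the infarcted heart these genes are known for sensing debris of dying myocytes and for being carried by resident and recruited leukocytes as well as by cells of the heart itself.

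The 10 genes described here are Tlr1, Tlr2, Tlr3, Tlr4, Tlr6, Tlr7, Tlr8, Tlr13, Cd14 and Myd88, taken by symbol from the 38293 genes of the deposited count table, and all 10 passed the filter on low counts. RNA came from the left ventricle of 9 male C57BL/6 mice aged 8 weeks, with 3 mice in each group. Mice 1, 2 and 3 had a sham operation, mice 4, 5 and 6 were studied 1 day after ischemia-reperfusion, and the rest 14 days after it. In ischemia-reperfusion the left anterior descending artery was tied off for 1 hour and then reopened, and tissue of those mice came from the infarcted region. When sham tissue was taken is not stated in the labels. Since the 3 columns at 14 days carry an identical name, their libraries go by A, B and C here, which ties none of them to a numbered mouse.

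Totals ran from 20215781 to 36816818 counts per library. Mitochondrially encoded genes took 52.0% (mouse 4) to 71.8% (sham mouse 3) of the counts. Without ribosomal RNA genes, mitochondrial ones included, 7217019 (sham mouse 3) to 15969149 (mouse 4) counts remained. Counts of the 10 genes were small, from 7 (Tlr6 in sham mouse 1) to 1741 (Tlr4 in mouse 4), and in sham the libraries held at most 24 counts of Tlr1 and 8 of Tlr6, which limits the precision of their folds. Mouse 6 stood apart from the other 1-day mice: its score on the first principal component (64.4% of the variance) was 37.2, against 78.0 for mouse 4 and 78.7 for mouse 5, and no library of another group scored above -16.9. The cardiomyocyte gene Myh6, at 9148 CPM in sham on average, matched the labelled tissue. Levels are given as CPM, counts scaled to a common library total with TMM factors, and log2 folds, SE and adjusted p come from edgeR's quasi-likelihood test across 14124 genes, with a threshold of 0.05. In whole tissue, more cells of a type and more RNA per cell cannot be told apart.

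Tlr1 and Tlr6 lie next to each other on chromosome 5 of GRCm38 (64924679 to 64933563 and 64952031 to 64960097, minus strand) and share a long identical stretch, which is shown because reads from it match both genes equally well. Within the coding sequence the longest shared run had 229 bases, at positions 1468 to 1696 of the Tlr1 coding sequence (chr5:64925537-64925765) and 1507 to 1735 of that of Tlr6 (chr5:64953828-64954056), 5′ to 3′ on the minus strand.
Tlr1 and Tlr6: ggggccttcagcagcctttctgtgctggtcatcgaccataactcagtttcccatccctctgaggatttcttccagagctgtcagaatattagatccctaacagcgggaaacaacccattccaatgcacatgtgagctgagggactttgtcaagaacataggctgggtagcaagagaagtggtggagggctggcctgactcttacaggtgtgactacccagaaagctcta
Of all 50-base words in Tlr1 transcripts 13.6% also occurred in Tlr6 transcripts, and of those in Tlr6 transcripts 12.3% occurred in Tlr1. How reads with several matches were counted is not given in the sources used here, so the split of counts between Tlr1 and Tlr6 is uncertain. None of the other 8 genes shared a 50-base word with another of the 10. Exons of Myd88 overlapped those of Acaa1a on the opposite strand over 11.3% of their length, and exons of Tlr3 overlapped an antisense gene over 7.32%, and whether counting used strand is not given either.

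Of the 10 genes, Tlr4 and Tlr7 had no RefSeq window in the reference used, and Cd14 was left out of the motif search. For the other 7 genes, 9 RefSeq windows of the 250 bases before a start site (GRCm38.p6) were taken. They were searched on both strands for an NF-kB motif (GGGA, 2 bases of any kind, TTCC), a PU.1 motif (GAGGAAGT), an AP-1 motif (TGANTCA) and an interferon response element (GAAA, 2 bases of any kind, GAAA). None overlapped another here except a pair of interferon elements in Tlr6. The windows with a match are shown, with the match in capitals. Tlr1, Myd88 and Tlr6 among them were called higher at 1 day, and Tlr3 was called lower with TMM scaling. Tlr2 and Tlr13 were also called higher at 1 day, and their windows held no match.
Tlr1 (chr5:64933559-64933808, minus strand): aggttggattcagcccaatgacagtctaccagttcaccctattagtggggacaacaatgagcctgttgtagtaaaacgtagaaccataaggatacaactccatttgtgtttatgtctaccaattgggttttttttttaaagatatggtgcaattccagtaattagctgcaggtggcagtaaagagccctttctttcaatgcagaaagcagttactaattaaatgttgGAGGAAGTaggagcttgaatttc
Myd88 (chr9:119340019-119340268, minus strand): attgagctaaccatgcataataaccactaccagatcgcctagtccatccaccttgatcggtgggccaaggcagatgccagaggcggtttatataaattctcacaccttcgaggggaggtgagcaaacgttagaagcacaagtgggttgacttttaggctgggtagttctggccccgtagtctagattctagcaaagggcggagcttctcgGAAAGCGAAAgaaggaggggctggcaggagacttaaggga
Tlr6 (chr5:64959167-64959416, minus strand): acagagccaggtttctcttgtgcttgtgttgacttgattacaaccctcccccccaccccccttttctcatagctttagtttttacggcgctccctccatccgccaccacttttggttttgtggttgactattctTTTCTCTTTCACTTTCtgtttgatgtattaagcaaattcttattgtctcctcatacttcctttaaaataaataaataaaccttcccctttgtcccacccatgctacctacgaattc
Tlr3 (chr8:45410381-45410630, minus strand): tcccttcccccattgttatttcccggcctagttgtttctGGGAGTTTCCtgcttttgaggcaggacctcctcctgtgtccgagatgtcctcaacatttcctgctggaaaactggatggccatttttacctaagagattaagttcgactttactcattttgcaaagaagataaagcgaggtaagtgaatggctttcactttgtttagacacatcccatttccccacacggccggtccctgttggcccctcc
The PU.1 motif lay 23 to 16 bases before the Tlr1 start, the interferon element 40 to 31 bases before the Myd88 start and the NF-kB motif 211 to 202 bases before the Tlr3 start, and Tlr6 held 2 overlapping interferon elements between 116 and 101 bases before its start. Of all 32851 RefSeq windows of this length 1.21% held the NF-kB motif, 2.44% the PU.1 motif, 6.75% the AP-1 motif and 2.98% the interferon element. The windows of Tlr2, Tlr8 and Tlr13, and a further window each of Tlr1 and Tlr6, held no match. These matches describe letters in the windows and no binding.

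At 1 day after ischemia-reperfusion 8 of the 10 genes differed from sham (54.2% of all genes tested did): 7 were higher (29.4% of all genes) and 1 was lower (24.8%). Tlr13, Tlr1, Myd88, Tlr6 and Cd14 were 6.59-fold to 2.12-fold higher, Tlr4 was 1.79-fold and Tlr2 1.70-fold higher, and Tlr3 fell by 0.36 on the log2 scale but was 0.12 higher with total count only. For the same 7 genes every 1-day library lay above every sham library (33.5% of all genes), and for Tlr3 every one lay below (29.7%), which makes 8 of 10 without overlap (63.2%).

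At 14 days 6 of the 10 were higher than in sham and 0 were lower, where 14.4% of all genes differed, 8.75% upwards and 5.64% downwards. The 6 were Tlr13, Tlr6, Tlr2, Tlr8, Tlr7 and Tlr4. The 14-day libraries lay wholly above sham for 8 of the 10, the exceptions being Tlr3 and Tlr8 (21.0% of all genes lay wholly above, 18.4% wholly below and 39.4% either way). Between both times 5 of the 10 differed, close to the 51.9% of all genes that did, with Tlr1, Tlr13 and Myd88 lower at 14 days than at 1 day (26.8% of all genes) and Tlr7 and Tlr3 higher (25.1%). The same 5 were without overlap between both times, 3 downwards and 2 upwards, which is again close to all genes (56.3%, of them 29.0% downwards and 27.3% upwards).

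The median log2 fold of the 10 genes was 0.96 at 1 day and 1.09 at 14 days against sham, beside 0.04 and 0.01 over all genes, and both comparisons share the sham libraries. With total count only in place of scaling factors the median of all genes moved by 0.48 at 1 day, 0.09 at 14 days and -0.39 between both times. The split of all calls went from 4153 higher and 3496 lower to 6860 and 1057 at 1 day, from 1236 and 797 to 720 and 112 at 14 days, and from 3547 and 3788 to 1066 and 5469 between both times. Of the 10 genes 9 were then higher and 0 lower at 1 day, 5 higher at 14 days, and 3 lower and 0 higher at 14 days than at 1 day.

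**Figure D1:**
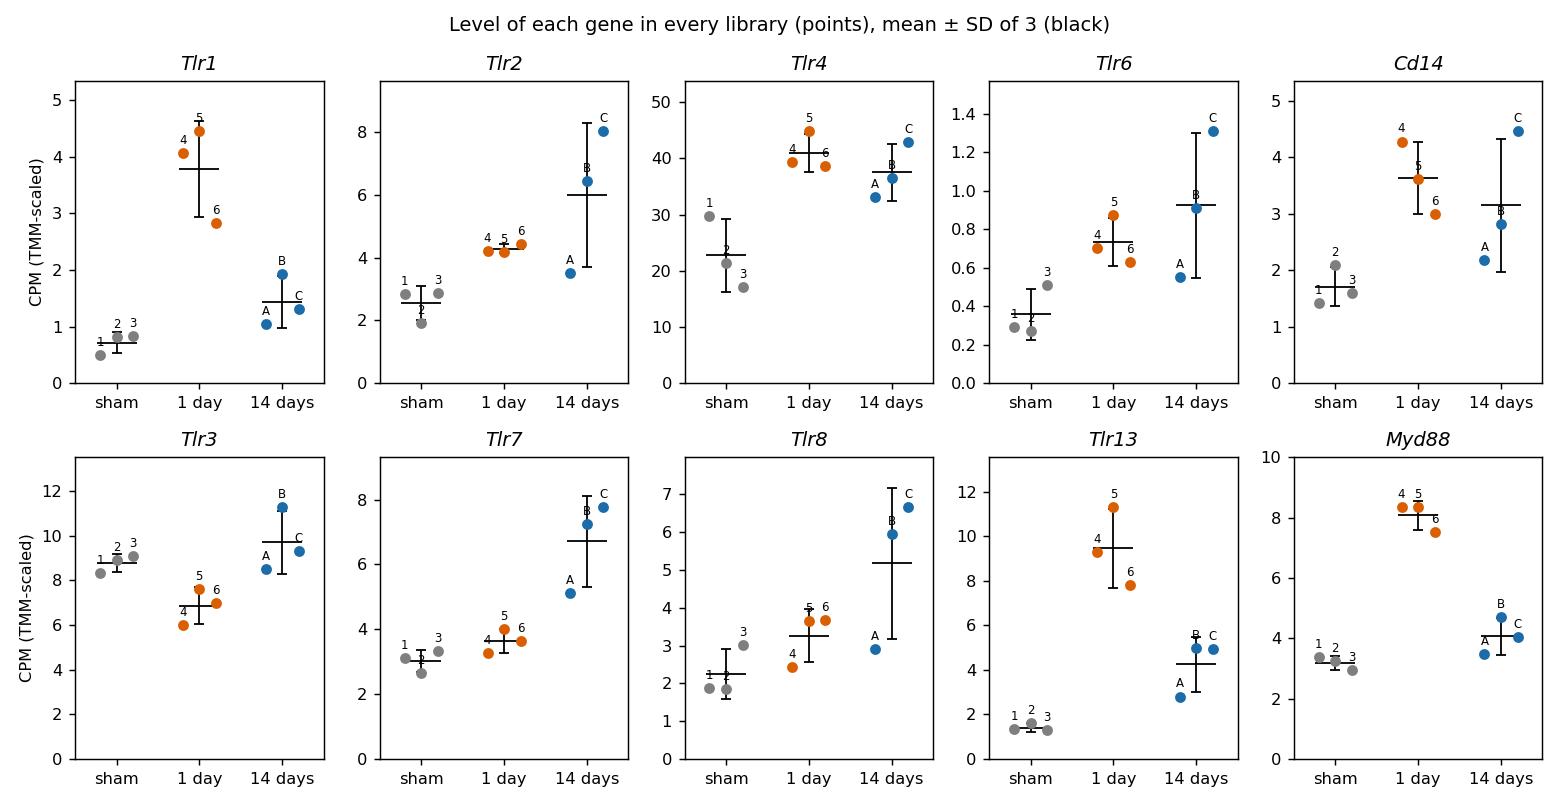
CPM of the 10 genes (y axis, TMM-scaled, from 0) in each library, grouped as sham (grey), 1 day (orange) and 14 days (blue), with the library's name above each point and black bars for the mean ± SD of 3. Tlr1, Tlr13 and Myd88 are highest in the 1-day libraries, and Tlr7 is highest in the 14-day libraries.

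Among the surface receptors, Tlr4, the receptor for lipopolysaccharide and for several tissue-derived ligands, was the most abundant, and it lies on chromosome 4 (66827584 to 66930284, plus strand). Its CPM was 29.8, 21.4 and 17.1 in sham mice 1, 2 and 3, 39.4, 44.8 and 38.7 in mice 4, 5 and 6 and 33.1, 36.4 and 43.0 in libraries A, B and C. Every library after ischemia-reperfusion lay above every sham library, and both times overlapped. Tlr4 was 0.84 higher (log2, SE 0.18, edgeR adjusted p = 0.00229) at 1 day and 0.71 higher (SE 0.18, adjusted p = 0.0230) at 14 days, and both times differed by -0.13 (SE 0.17, adjusted p = 0.554). The 1-day call held under all 18 other settings. The 14-day call ended with total count only and without sham mouse 2, sham mouse 3, library B or library C (adjusted p up to 0.107).

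Tlr2, which recognises lipopeptides in pairs with Tlr1 or Tlr6 and lies on chromosome 3 (83836272 to 83841767, minus strand), had 2.85, 1.92 and 2.88 CPM in sham, 4.21, 4.17 and 4.44 CPM at 1 day and 3.50, 6.42 and 8.01 CPM at 14 days. The 1-day libraries lay close together, the 14-day libraries were spread with A lowest, and neither time overlapped sham. It was 0.77 higher at 1 day (log2, SE 0.28, edgeR adjusted p = 0.0380) and 1.25 higher at 14 days (SE 0.28, adjusted p = 0.0150). The 1-day call ended with limma-voom and without any 1 of the sham mice, the 1-day mice or library B, and the 14-day call ended without sham mouse 2, library B or library C.

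Tlr1 and Tlr6 are the partners of Tlr2. Tlr1 had 0.502, 0.809 and 0.831 CPM in sham, 4.07, 4.45 and 2.82 CPM at 1 day and 1.04, 1.93 and 1.31 CPM at 14 days, so that none of the groups overlapped and mouse 6 was the lowest at 1 day. It was 5.34-fold higher at 1 day (log2 2.42, SE 0.29, edgeR adjusted p = 9.56e-05), 2.03-fold above sham at 14 days without passing the test (log2 1.02, SE 0.32, adjusted p = 0.0523), and lower at 14 days than at 1 day (log2 -1.40, SE 0.26, adjusted p = 0.00102). At 14 days against sham Tlr1 passed with DESeq2, with no filter on low counts, when both groups were fitted alone and without mouse 6 or library A.

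Tlr6 was the least abundant of the 10, with 7, 8 and 8 counts in the sham libraries. Its CPM was 0.293, 0.270 and 0.511 in sham, 0.702, 0.874 and 0.627 at 1 day and 0.554, 0.909 and 1.31 at 14 days. Both times lay above sham and overlapped each other. It was 1.11 higher at 1 day (log2, SE 0.40, edgeR adjusted p = 0.0352) and 1.42 higher at 14 days (SE 0.39, adjusted p = 0.0328). The 1-day call ended with DESeq2 and without mice 1, 2, 4 or 5 or library B, and the 14-day call ended with limma-voom and without sham mouse 1, sham mouse 2, library B or library C.

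The ratio of Tlr1 to Tlr6 counts, which needs no scaling, was 1.67, 2.88 and 1.59 in sham, 5.73, 5.0 and 4.38 at 1 day and 1.85, 2.11 and 1.0 at 14 days. All 1-day libraries lay above all others. The ratio was 2.54-fold higher at 1 day than in sham and 3.18-fold lower at 14 days than at 1 day, each with an exact two-sided permutation p = 0.1, the smallest that 3 against 3 can give, and an adjusted p of 0.225 over 45 such tests. Reads from the shared stretch match both genes equally well and may have been counted for either, for both or for neither. The ratio therefore rests on how they were handled.

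Cd14, the co-receptor that passes lipopolysaccharide to Tlr4 and is a marker of monocytes, lies on chromosome 18 (36725067 to 36726798, minus strand). It had 1.42, 2.09 and 1.60 CPM in sham, 4.28, 3.61 and 3.00 CPM at 1 day and 2.18, 2.81 and 4.46 CPM at 14 days. Neither time overlapped sham. It was 2.12-fold higher at 1 day (log2 1.09, SE 0.27, edgeR adjusted p = 0.00539), a call that held under all 18 other settings. At 14 days the log2 fold was 0.85 (SE 0.27, adjusted p = 0.0579), which passed with DESeq2, with no filter on low counts and without mouse 6 or library A. The ratio of Cd14 to Tlr4 counts overlapped between all groups, from 0.0484 to 0.0985 in sham, 0.0782 to 0.109 at 1 day and 0.0665 to 0.104 at 14 days, and its log2 difference from sham was 0.20 at 1 day (exact permutation p = 0.8) and 0.08 at 14 days (exact permutation p = 0.8).

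Among the endosomal receptors, Tlr13, a mouse sensor of bacterial ribosomal RNA on the X chromosome (106143204 to 106160493, plus strand), had the largest edgeR log2 fold of the 10 genes against sham at both times. It had 1.34, 1.62 and 1.28 CPM in sham, 9.28, 11.3 and 7.80 CPM at 1 day and 2.80, 4.98 and 4.95 CPM at 14 days. The groups did not overlap at all, with 1 day highest and sham lowest. It was 6.59-fold higher at 1 day (log2 2.72, SE 0.24, edgeR adjusted p = 1.99e-05), 2.96-fold higher at 14 days (log2 1.56, SE 0.25, adjusted p = 0.00471) and lower at 14 days than at 1 day (log2 -1.16, SE 0.21, adjusted p = 9.57e-04). All 3 calls held under all 18 other settings.

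Tlr7 and Tlr8, neighbouring genes on the X chromosome (167304929 to 167330558 and 167242696 to 167264329, minus strand) that sense single-stranded RNA and its breakdown products, had their highest means at 14 days. Tlr7 had 3.10, 2.66 and 3.32 CPM in sham, 3.26, 4.01 and 3.63 CPM at 1 day and 5.12, 7.24 and 7.77 CPM at 14 days. Sham and 1 day overlapped, and every 14-day library lay above both. Tlr7 was 2.23-fold higher at 14 days than in sham (log2 1.16, SE 0.18, edgeR adjusted p = 0.00365), a call that held under all 18 other settings, and 0.89 higher than at 1 day (SE 0.17, adjusted p = 0.00130), a call that ended with total count only. At 1 day its log2 fold was 0.27 (SE 0.18, adjusted p = 0.239), and it passed with total count only (0.74).

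Tlr8 had 1.88, 1.85 and 3.00 CPM in sham, 2.44, 3.65 and 3.67 CPM at 1 day and 2.91, 5.95 and 6.66 CPM at 14 days. Library A lay below sham mouse 3, so the groups overlapped. It was 1.24 higher at 14 days than in sham (log2, SE 0.32, edgeR adjusted p = 0.0278), a call that ended with limma-voom and without sham mouse 1, sham mouse 2, library B or library C. At 1 day the log2 fold was 0.55 (SE 0.33, adjusted p = 0.181), which passed with total count only (1.02). The ratio of Tlr7 to Tlr8 counts overlapped between all groups (0.988 to 1.76 over the 9 libraries), and the smallest of its 3 exact permutation p-values was 0.2.

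Tlr3, the sensor of double-stranded RNA that does not use Myd88, was the gene called lower at 1 day with TMM scaling, and it lies on chromosome 8 (45395665 to 45411080, minus strand). It had 8.33, 8.93 and 9.07 CPM in sham, 6.00, 7.62 and 6.99 CPM at 1 day and 8.52, 11.3 and 9.32 CPM at 14 days. All 1-day libraries lay below all others, and sham and 14 days overlapped. It was 0.36 lower at 1 day (log2 -0.36, SE 0.13, edgeR adjusted p = 0.0385), and 0.51 higher at 14 days than at 1 day (SE 0.13, adjusted p = 0.00703), a call that ended with total count only (log2 0.13, adjusted p = 0.600). The 1-day fall turned to a log2 fold of 0.12 with total count only, and its call ended with no filter on low counts and without sham mouse 1, 2 or 3 or mouse 4. The ratio of Tlr3 to Tlr7 counts, free of scaling, was 2.68, 3.34 and 2.71 in sham, 1.84, 1.90 and 1.92 at 1 day and 1.66, 1.56 and 1.20 at 14 days. No groups overlapped in it, and each difference had the smallest exact permutation p of 0.1 (adjusted 0.225).

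Myd88, the adaptor shared by most Toll-like receptors and by interleukin-1 receptors, lies on chromosome 9 (119335934 to 119341411, minus strand). It had 3.39, 3.24 and 2.94 CPM in sham, 8.35, 8.34 and 7.53 CPM at 1 day and 3.46, 4.69 and 4.05 CPM at 14 days. The 1-day libraries stood apart from all others. It was 2.52-fold higher at 1 day (log2 1.33, SE 0.14, edgeR adjusted p = 4.56e-05) and 0.99 lower at 14 days than at 1 day (log2 -0.99, SE 0.13, adjusted p = 1.70e-04), and both calls held under all 18 other settings. At 14 days against sham its log2 fold was 0.35 (SE 0.14, adjusted p = 0.131), although the groups did not overlap.

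**Figure D2:**
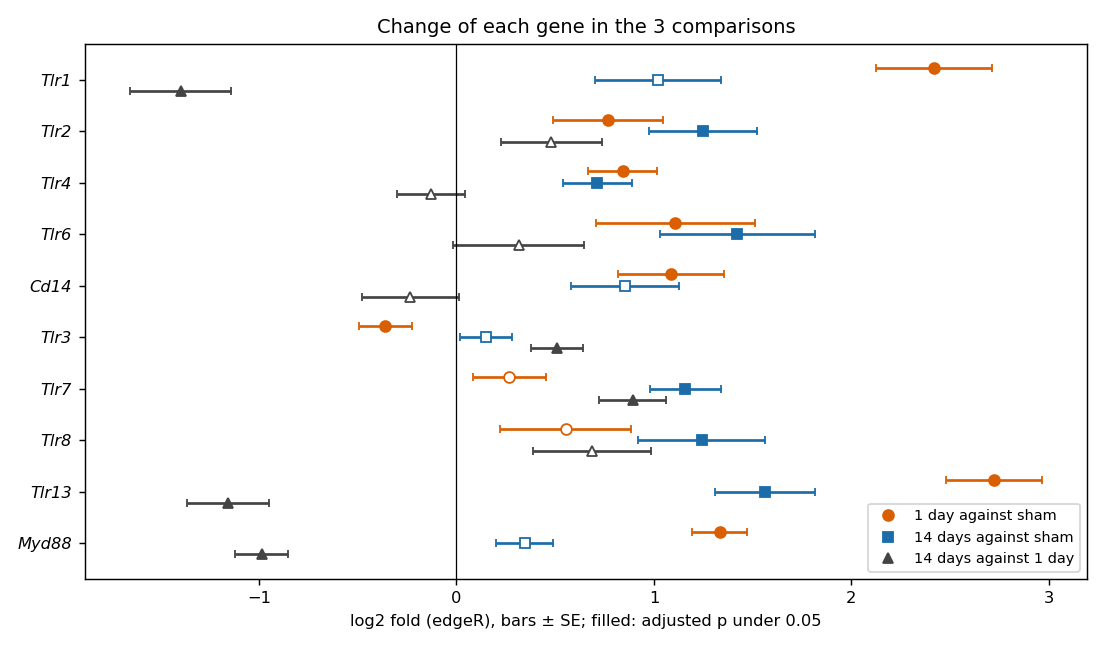
Log2 fold of each gene (x axis, edgeR, bars ± SE) at 1 day against sham (orange circles), 14 days against sham (blue squares) and 14 days against 1 day (grey triangles), filled where the adjusted p was under 0.05. Tlr1, Tlr13 and Myd88 have large 1-day values and filled triangles left of 0, and Tlr7 and Tlr3 have filled triangles right of 0, with total count only Tlr3 at 1 day and the unfilled triangle of Tlr6 turn direction.

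Per length (CPM per kilobase of exon) the order of levels in sham was Tlr4 at 4.09 ± 1.17, Tlr3 at 1.69 ± 0.0756, Myd88 at 1.24 ± 0.0891, Cd14 at 0.984 ± 0.199, Tlr2 at 0.845 ± 0.180, Tlr7 at 0.742 ± 0.0823, Tlr8 at 0.627 ± 0.183, Tlr13 at 0.328 ± 0.0420, Tlr1 at 0.213 ± 0.0548 and Tlr6 at 0.0960 ± 0.0357 (SD, n = 3). Tlr4 and Tlr3 stood clear of the next gene, as did Tlr8 of Tlr13, Tlr13 of Tlr1 and Tlr1 of Tlr6, while the ranges of neighbours from Myd88 to Tlr8 overlapped. At 1 day the order was Tlr4 at 7.37 ± 0.602, Myd88 at 3.13 ± 0.183, Tlr13 at 2.20 ± 0.411, Cd14 at 2.10 ± 0.368, Tlr2 at 1.42 ± 0.0476, Tlr3 at 1.32 ± 0.158 and Tlr1 at 1.13 ± 0.254, with Tlr8 at 0.908 ± 0.196, Tlr7 at 0.890 ± 0.0921 and Tlr6 at 0.197 ± 0.0339 last. Myd88, Tlr13 and Cd14 stood above Tlr3, and the ranges of Tlr13 and Cd14 overlapped, as did those of neighbours from Tlr2 to Tlr7. At 14 days Tlr4 led at 6.75 ± 0.906 and Tlr6 was last at 0.248 ± 0.101, and Tlr2, Tlr3, Cd14, Tlr7, Myd88 and Tlr8 had means between 1.44 and 1.98 with overlapping ranges. Tlr13 followed at 0.986 ± 0.290 and Tlr1 at 0.427 ± 0.137, each overlapping its neighbour above or below.

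The summed level of the 8 receptors per length was 8.63 ± 0.956 CPM per kilobase in sham, 15.4 ± 1.45 after 1 day and 15.3 ± 3.06 after 14 days (SD of 3 mice). Tlr4 took 46.9% ± 8.63, 47.8% ± 0.600 and 44.5% ± 4.90 of it, so its share overlapped between the groups. Tlr13 took 3.84% ± 0.749 in sham, 14.2% ± 1.51 at 1 day and 6.34% ± 0.831 at 14 days, while Tlr3 took 19.7% ± 2.87, 8.55% ± 0.703 and 12.4% ± 2.02. Tlr7 took 8.65% ± 1.22, 5.77% ± 0.345 and 10.7% ± 0.190. These shares are a description with no test.

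**Figure D3:**
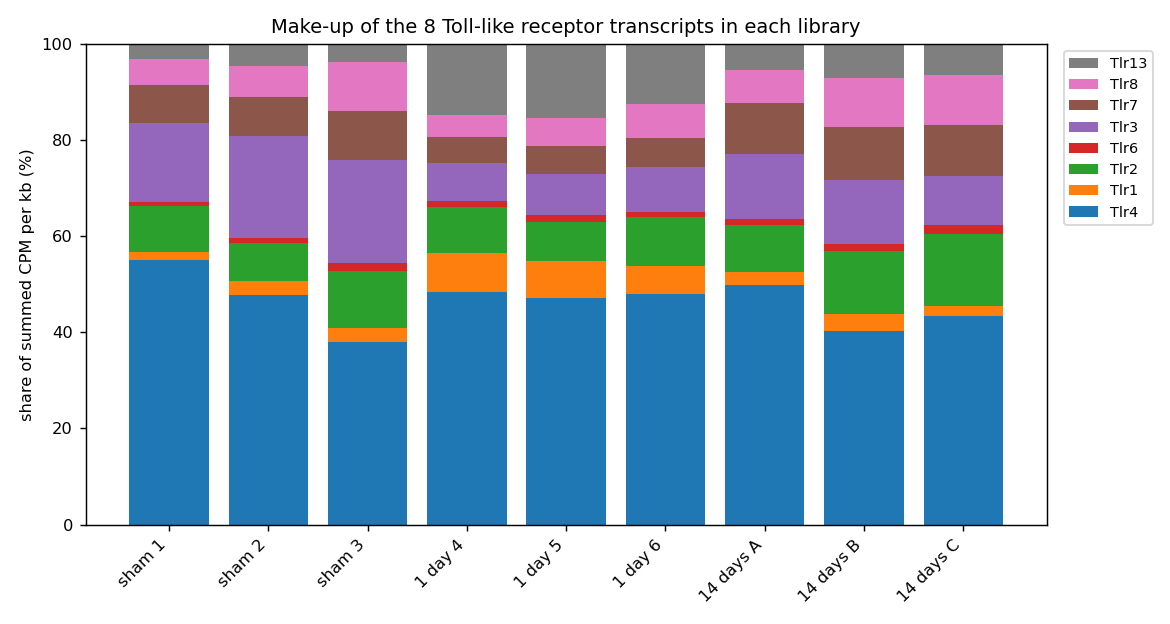
Share of the summed CPM per kilobase of the 8 Toll-like receptor genes (y axis, percent) in each of the 9 libraries, with stacked colours for genes. Tlr4 (bottom) takes between 37.9% and 55.1% in every library, Tlr13 (top) widens at 1 day and Tlr3 narrows.

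Lists of cell type markers changed in different ways between the groups. Among all genes tested, 29.4% were called higher and 24.8% lower at 1 day, and 8.75% and 5.64% at 14 days. With total count only, 6860 of 14124 were higher and 1057 lower at 1 day, and 720 and 112 at 14 days. The pan-leukocyte gene Ptprc (CD45) rose 1.27 at 1 day (log2, SE 0.25, edgeR adjusted p = 0.00218) and 0.86 at 14 days (SE 0.25, adjusted p = 0.0489), and with total count only 0 of the 4 pan-leukocyte markers, Ptprc among them, passed at 14 days. The summed CPM of 12 neutrophil markers ran from 1.80 to 5.56 in sham, was 126, 145 and 51.3 in mice 4, 5 and 6 and ran from 2.42 to 3.80 at 14 days, and 7 of 7 tested markers rose at 1 day, while Ly6g was listed at 0 in every library. For 10 monocyte and early recruited macrophage markers the sums were 75.9 to 147 in sham, 399 to 520 at 1 day and 202 to 505 at 14 days, with 10 of 10 higher at 1 day. For 10 general macrophage markers they were 158 to 177, 244 to 278 and 238, 367 and 455 in A, B and C, with 4 of 10 higher at 1 day and 8 of 10 at 14 days (9 of 10 and 6 of 10 with total count only). For 7 fibroblast markers they were 399 to 605, 471 to 617 and 1132, 1810 and 2732 in A, B and C. Not all leukocyte lists rose at 1 day: of 7 resident macrophage markers 2 were higher and 3 lower (median log2 fold -0.48, with total count only 3 higher and 0 lower). Of 2 tested B cell markers 0 were higher and 1 lower at 1 day. Dendritic cell markers were mixed at 1 day. Of 4 tested, Flt3 (log2 3.22) and Cd209a (2.11) were higher and Zbtb46 (-0.37) lower, with a median log2 fold of 1.40. The summed CPM of all 7 dendritic cell markers was 15.1 to 16.8 in sham and 12.9 to 14.5 at 1 day. Most of that sum was Zbtb46, with means of 15.2 CPM in sham and 11.8 CPM at 1 day. The summed CPM of 8 cardiomyocyte markers was 26000 to 28570 in sham, 10475, 8824 and 17534 in mice 4, 5 and 6 and 18337 to 25266 at 14 days, with 7 of 8 lower at 1 day (5 of 8 with total count only). Library A was lowest in macrophage and fibroblast markers, as it was in each of the 10 genes at 14 days, and highest in cardiomyocyte markers among the 14-day libraries. Mouse 6 was lowest at 1 day in pan-leukocyte, neutrophil and monocyte markers and highest in cardiomyocyte markers, and it was lowest in Tlr1, Tlr4, Tlr6, Tlr13, Cd14 and Myd88. The part of these cell types in the changes was not tested beyond the ratios to Ptprc.

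Relative to Ptprc counts the genes differed from each other at 1 day. Ptprc itself rose 1.27 at 1 day and 0.86 at 14 days (log2), so a gene with an unchanged level falls relative to it. From 1 day to 14 days Ptprc changed by -0.41, and an unchanged gene then rises relative to it. How many of all genes lay without overlap in such a ratio was not counted. Tlr13 was 2.75-fold and Tlr1 2.18-fold higher relative to Ptprc than in sham, Tlr3 was 3.06-fold, Tlr7 1.99-fold and Tlr8 1.64-fold lower, and for these 5 no libraries overlapped (exact permutation p = 0.1 each, the smallest possible, adjusted 0.225). Cd14 (log2 difference -0.17, exact permutation p = 0.5), Myd88 (0.08, p = 0.6), Tlr6 (-0.23, p = 0.6), Tlr4 (-0.37, p = 0.4) and Tlr2 (-0.49, p = 0.2) overlapped with sham. The ratio of Myd88 to Ptprc was 0.354, 0.344 and 0.278 in sham and 0.347, 0.319 and 0.361 at 1 day, although its own CPM had risen 2.52-fold. At 14 days against sham Tlr13 was 1.69-fold and Tlr2 1.31-fold higher and Tlr3 1.55-fold lower relative to Ptprc with no overlap (exact permutation p = 0.1 each), and the other 7 overlapped. Tlr7 relative to Ptprc was 2.54-fold higher at 14 days than at 1 day, from 0.136 to 0.175 at 1 day to 0.313 to 0.484 at 14 days. Tlr8 (2.12-fold), Tlr3 (1.97-fold), Tlr2 (1.84-fold) and Tlr6 (1.66-fold) were also higher relative to Ptprc at 14 days than at 1 day, and Tlr1 was 1.91-fold and Tlr13 1.63-fold lower. For these 7 no libraries overlapped (exact permutation p = 0.1 each, adjusted 0.225), and Tlr4, Cd14 and Myd88 overlapped (p = 0.2 each). These ratios set each gene against all leukocytes together and do not separate leukocyte types.

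**Figure D4:**
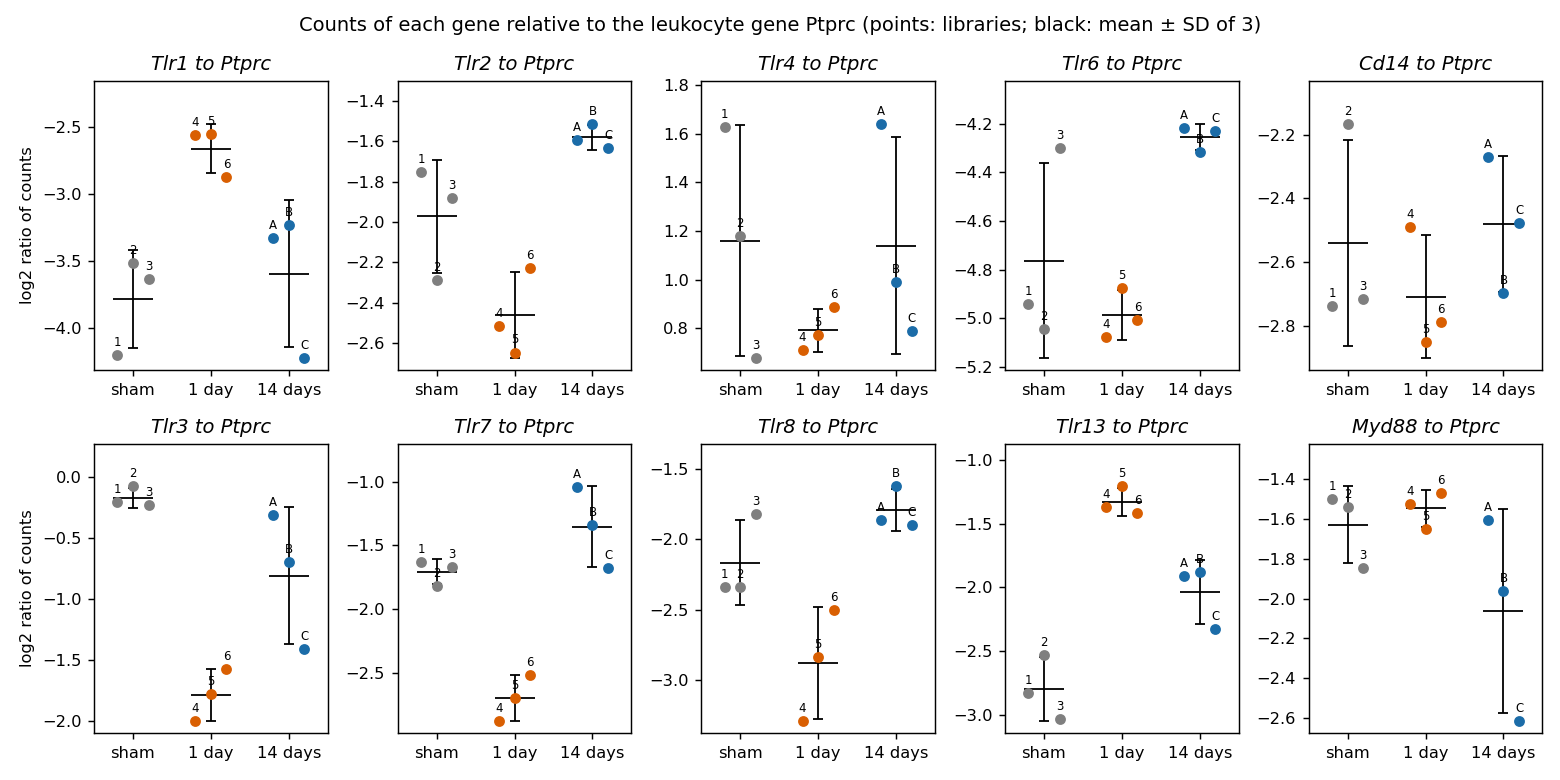
Log2 ratio of the counts of each gene to those of Ptprc (y axis, scale differs by panel) in each library, with black bars for the mean ± SD of 3 libraries. Tlr1 and Tlr13 are highest at 1 day, Tlr3, Tlr7 and Tlr8 are lowest at 1 day, and the 1-day points of Cd14 and Myd88 overlap the range of sham.

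Across the 9 libraries the levels formed looser sets, given as a description since all genes share the groups and libraries. Tlr1, Tlr13 and Myd88 correlated with each other (Pearson r of log2 CPM 0.93 to 0.96, n = 9 libraries), as did Tlr2, Tlr6 and Tlr8 (0.90 to 0.93) and Tlr7 with Tlr8 (0.90), while Tlr7 and Myd88 had r = -0.01. Of 8556 protein-coding genes, the 3 most like Tlr1 were Trp53 (0.99), Ikzf1 (0.98) and Elovl1 (0.98), and those most like Tlr13 were Ikzf1, Iqgap1 and Nek6 (0.99 each). Most like Myd88 were Adam8, Setd7 and Coq8b (0.99 each), most like Cd14 were Gsdmd (0.99), Appl1 and Rpl41 (0.97 each), and most like Tlr4 were the matrix genes Fn1 (0.97) and Thbs1 (0.97) and then Zbtb38 (0.96). Most like Tlr7 was Calcrl (0.996), before Vav3 and Erbin (0.99 each), and most like Tlr2 were Pqlc3, Ccnc (0.98 each) and Atp6v0e (0.97). Tlr6 was most like Calm2, Tgfbr1 (0.98 each) and Epb41l2 (0.97), Tlr8 most like Acbd5 (0.98), Srek1 and Asah1 (0.97 each), and Tlr3 most like Tsg101 and Zfp942 (0.96 each) and Sirt1 (0.95).

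The remaining Toll-like receptor genes of the mouse genome were low. Tlr9, the sensor of unmethylated DNA, had 0.613 ± 0.126 CPM in sham, 1.07 ± 0.116 after 1 day and 1.36 ± 0.431 after 14 days (SD of 3 mice), and was 0.80 higher at 1 day (log2, SE 0.31, edgeR adjusted p = 0.0442) and 1.12 higher at 14 days (SE 0.30, adjusted p = 0.0296). Its 1-day call ended under 8 of the 18 other settings and its 14-day call under 7. Tlr5, the flagellin receptor, had log2 folds of -0.25 and -0.09 (adjusted p = 0.533 and 0.877), and Tlr11 and Tlr12 were under the filter on low counts, with at most 10 and 4 counts in a library.

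Of 12 listed accessory and trafficking genes 11 were tested, and 5 rose and 1 fell at 1 day (median log2 fold 0.21), and 3 rose at 14 days (median 0.63). Of all genes 29.4% rose and 24.8% fell at 1 day and 8.75% rose at 14 days. With total count only 7 of the 11 rose and 0 fell at 1 day, where 6860 of all 14124 genes rose and 1057 fell. Hsp90b1, the chaperone gp96 that folds most Toll-like receptors, rose 1.70 (SE 0.16) at 1 day with its partner Cnpy3 (0.80, SE 0.17) and the endosomal GTPase Rab7b (1.38, SE 0.21), and the scavenger receptor Cd36 fell (-0.79, SE 0.17), a call that ended with total count only. At 14 days Ly86 (MD-1, 1.32, SE 0.23), the lipopolysaccharide-binding protein gene Lbp (1.20, SE 0.27) and Rab7b (1.16, SE 0.21) were higher, and the call of Lbp ended without sham mouse 1, sham mouse 2, library B or library C. Lbp (1.77, SE 0.27), Ly86 (1.28, SE 0.23) and Cd36 (0.71, SE 0.17) were higher at 14 days than at 1 day and Hsp90b1 (-1.58, SE 0.16) and Cnpy3 (-0.71, SE 0.17) lower, the Cd36 call again ending with total count only.

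Of 26 adaptor and signalling genes 13 rose and 0 fell at 1 day (median log2 fold 0.28), 1 rose at 14 days against sham (median 0.07), and 10 were lower and 0 higher at 14 days than at 1 day (median -0.24). The shares of all genes were 29.4% higher at 1 day, 8.75% higher at 14 days and 26.8% lower between both times. With total count only 19 of the 26 rose at 1 day and 16 were lower at 14 days than at 1 day. Under that setting 6860 of all 14124 genes rose at 1 day and 5469 were lower at 14 days than at 1 day. Traf3 (0.72, SE 0.10), Chuk (0.29, SE 0.09) and Tbk1 (0.27, SE 0.10), a ubiquitin ligase and 2 kinases of the pathway, were the most abundant that rose at 1 day. The call of Chuk ended without sham mouse 2, sham mouse 3 or mouse 5, and that of Tbk1 ended under 11 of 18 other settings. Pik3ap1 (0.87, SE 0.22) rose at 14 days, a call that ended without sham mouse 1, sham mouse 2, library B or library C. Traf3 (-0.74, SE 0.10) and the NF-kB subunits Rela (-0.55, SE 0.10) and Nfkb2 (-0.90, SE 0.13) were lower at 14 days than at 1 day.

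Of 16 tested negative regulators 9 rose and 1 fell at 1 day (median log2 fold 0.55), and 2 rose at 14 days (median 0.18), the latter close to the 8.75% of all genes that rose then. At 1 day 29.4% of all genes rose and 24.8% fell. Socs3, which restrains cytokine signalling, went from 1.45 ± 0.247 CPM in sham to 15.5 ± 1.95 at 1 day and 2.58 ± 0.697 at 14 days (SD of 3 mice, log2 3.45, SE 0.21, edgeR adjusted p = 2.53e-06 at 1 day). The deubiquitinase Cyld (0.66, SE 0.11) and Tnip1 (0.49, SE 0.14, a call that ended without mouse 4) also rose at 1 day, and the phosphatase Dusp1 fell (-1.49, SE 0.19). At 14 days Irak3, the kinase-like protein that blocks signalling below Myd88, was 0.91 higher (SE 0.22) and Socs3 0.86 higher (SE 0.23). The Irak3 call ended without any 1 of the sham mice, library B or library C, and that of Socs3 with limma-voom and without sham mouse 1, sham mouse 2, library B or library C. From 1 day to 14 days 7 of the 16 fell and 2 rose, where 26.8% of all genes fell and 25.1% rose. Socs3 (-2.59, SE 0.18), Cyld (-0.48, SE 0.11) and Tnip1 (-0.51, SE 0.14) were lower, and Dusp1 (1.46, SE 0.19) and Il1rl1 (0.88, SE 0.27) higher. The call of Tnip1 ended without mouse 4 and that of Il1rl1 with total count only and without mouse 4 or library B.

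Of 9 tested genes of proteins reported as endogenous ligands of Tlr2 or Tlr4, 7 rose at 1 day (median log2 fold 2.15), and 4 rose and 1 fell at 14 days (median 1.33). The 14-day counts became 1 and 0 with total count only and 2 and 1 without mouse 6, where the shares of all genes in the full fit were 8.75% upwards and 5.64% downwards at 14 days and 29.4% upwards at 1 day. At 1 day the matrix genes Fn1 (2.15, SE 0.43), Vcan (1.71, SE 0.31) and Bgn (0.68, SE 0.24) were the most abundant that rose, the Bgn call ending with no filter on low counts and without sham mouse 1, 2 or 3, mouse 4 or mouse 5. At 14 days Bgn (1.64, SE 0.24), Fn1 (1.91, SE 0.42), Tnc (2.74, SE 0.61) and Vcan (1.48, SE 0.31) were higher and the mitochondrial chaperone Hspd1 lower (-0.52, SE 0.11). Of these only the Bgn call held under all 18 other settings. The calprotectin genes S100a8 (-4.82, SE 0.74) and S100a9 (-4.55, SE 0.64), the serum amyloid gene Saa3 (-3.30, SE 1.00) and Tnc (-2.79, SE 0.53) were lower and Bgn (0.96, SE 0.24) higher at 14 days than at 1 day. Saa3 had 0, 0 and 16 counts in libraries A, B and C. Its call ended under 6 of 17 other settings and that of Bgn with total count only.

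Of 13 tested target genes 11 rose and 1 fell at 1 day (median log2 fold 2.98), 2 rose at 14 days against sham (median 0.80), and 10 were lower and 1 higher at 14 days than at 1 day (median -1.57). Of all genes 29.4% rose at 1 day, 8.75% rose at 14 days and 26.8% were lower at 14 days than at 1 day. The chemokine gene Ccl2 had 1.25 ± 0.308 CPM in sham, 19.4 ± 1.18 after 1 day and 1.00 ± 0.421 after 14 days (SD of 3 mice, log2 3.99, SE 0.22, edgeR adjusted p = 1.85e-06 at 1 day). Il1b rose 2.52 (SE 0.42) at 1 day and Icam1 0.76 (SE 0.23), the latter a call that ended without sham mouse 1, sham mouse 2 or mouse 4. The mitochondrial superoxide dismutase Sod2 fell (-1.11, SE 0.16). At 14 days Ptgs2 (cyclooxygenase-2) was 1.57 higher (SE 0.40), a call that ended with limma-voom and without any 1 of the sham mice or library C. For Il6, which was also called, the summed counts were 34 at 14 days and 2 in sham, a ratio of 13.5 with a 95% exact counting interval of 3.45 to 116, which covers counting error only, and its call ended without sham mouse 2, sham mouse 3 or library C. Ccl2 (-4.29, SE 0.22), Il1b (-2.90, SE 0.42) and Ptgs2 (-1.41, SE 0.30) were lower at 14 days than at 1 day, and Sod2 was higher (0.63, SE 0.16), a call that ended with total count only.

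**Figure D5:**
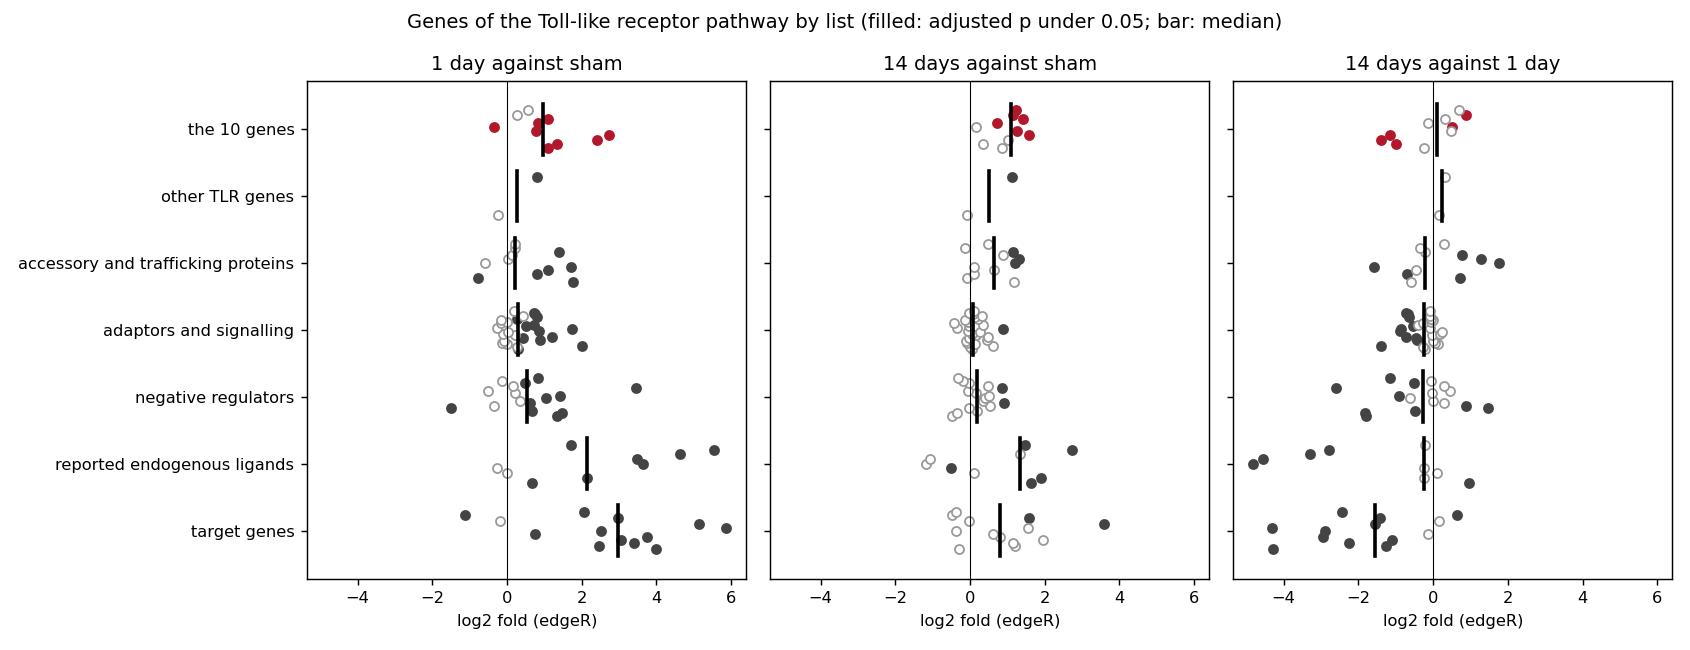
Log2 fold (x axis, edgeR) of each tested gene of the Toll-like receptor pathway by list in the 3 comparisons, filled where the adjusted p was under 0.05, with the 10 genes in red and a bar at each list's median. Target genes and reported ligands lie farthest right at 1 day and target genes lie left of 0 at 14 days against 1 day, while the 10 genes have a median of 1.09 at 14 days against sham.

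The counts of called genes among the 10 depended on single libraries. At 1 day 8 were called in all, 5 without sham mouse 1, sham mouse 2 or mouse 4, and 7 (6 higher, 1 lower) without mouse 6, where the call of Tlr2 ended. At 14 days against sham 6 were called in all, 2 (Tlr7 and Tlr13) without sham mouse 2, library B or library C, and 9 without library A.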

How the data were processed

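Per the labels' protocols, total RNA was extracted with TRIzol and depleted of ribosomal RNA before stranded library preparation. STAR 2.7.1a and the build GRCm38 (mm10) come from the submitters' processing notes. The authors deposited raw counts, in whole numbers for each gene; no counter, annotation or strand setting is named in the labels. Of 38293 genes 36345 were named from GENCODE release M21.

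The main test was edgeR 4.0.16's robust quasi-likelihood fit (R 4.3.3) with TMM scaling, filterByExpr on low counts (14124 genes kept), all 9 libraries in 1 fit and Benjamini-Hochberg adjustment over all genes. The scripts were tested on simulated data. Library totals were 20215781 to 36816818 counts. Ratios of counts used a pseudocount of 0.5 and two-sided exact permutation tests.

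The members and lists were chosen with earlier results of these data known. All 10 members were named. From each of 6 pathway lists the called genes were named where 5 or fewer, otherwise the most abundant by mean CPM, 3 of the commoner direction and 2 of the rarer. Of 92 listed pathway genes 91 were in the table. For likeness, the 3 genes with the highest r among those with at least 5 CPM in 1 group were named. The alternatives were DESeq2 1.42.0, its size factors in edgeR, total count only, upper-quartile scaling, scaling without mitochondrial and ribosomal RNA genes, limma-voom (limma 3.58.1), both other filters, the 2 groups compared alone and each library left out. Figures were drawn with matplotlib 3.10.9.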

Additional observations from a re-analysis of the deposited data

How the results depend on the processing

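The number of the 10 genes called stayed within 1.5 times its value under all 9 other scalings, filters and tests, except that 3 rather than 5 genes differed between 14 days and 1 day with total count only, and there Tlr6 turned to -0.0583; Tlr3 at 1 day turned to 0.12. Under that setting the median log2 fold of all genes moved by 0.48 at 1 day against sham and by -0.39 at 14 days against 1 day. What lies behind that move was not tested. With each library left out in turn, 5 to 8 genes were called at 1 day, 2 to 9 at 14 days against sham and 5 to 7 at 14 days against 1 day, with fewer samples in each fit. Log2 ratio differences that changed sign with 1 library left out were all small. Their ranges were -0.53 to 0.00496 (Tlr1 to Tlr6), -0.21 to 0.11 (Tlr7 to Tlr8), -0.25 to 0.26 (Cd14 to Tlr4), -0.0229 to 0.50 (Tlr1 to Ptprc), -0.27 to 0.21 (Tlr4 to Ptprc) and -0.0471 to 0.25 (Cd14 to Ptprc) at 14 days against sham. At 1 day they were -0.29 to 0.17 (Tlr2 to Tlr4), -0.13 to 0.38 (Cd14 to Tlr4), -0.37 to 0.00573 (Tlr6 to Ptprc), -0.28 to 0.0177 (Cd14 to Ptprc) and -0.0288 to 0.15 (Myd88 to Ptprc). At 14 days against 1 day Cd14 to Tlr4 ran from -0.30 to 0.0300. A pseudocount of 1 changed no sign. No paired analysis was possible because the groups share no mouse numbers. Low sham counts limit the folds of Tlr6 and Tlr1 among others, and 3 mice per group limit every exact permutation p to 0.1 or more.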
